A study of Equus caballus with 4 samples.

Results

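The insulin-like growth factor (IGF) system comprises the growth factors IGF-1 and IGF-2, their receptors and a family of secreted binding proteins. It was examined on gene expression arrays of equine satellite cells (ESC), the precursor cells from which adult muscle regenerates. The genes sought were *igf1*, *igf2*, *igf1r*, *igf2r* and the binding protein genes *igfbp2* to *igfbp7*, 10 genes in all. Probes were taken by their gene name in the scanner files, and 6 of the 43603 probes on the array carried exactly 1 of these names. They represented 5 of the 10 genes, namely *igf1*, *igf2*, *igf1r*, *igf2r* and *igfbp2*. A further 9 probes carried the hyphenated names IGFBP-3, IGFBP-4, IGFBP-5 and IGFBP-6. These 4 genes are described beside the members and counted apart from them, and no probe carried the symbol of *igfbp7*. A probe that the files list under a GenBank accession and describe as *igf2* is also given, outside the counts.

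Cells from the semitendinosus muscle had differentiated until day 3. Those of the HMB-treated group were incubated for 24 h with 50 µM HMB (β-hydroxy-β-methylbutyrate, a metabolite of leucine) and received 3 mM H2O2 during the last 1 h. The control group was exposed to H2O2 alone, so both groups carried the oxidative challenge and the comparison asks how HMB altered expression under it. The donors were stallions of 6 months, and the cultures had been depleted of fibroblasts by adhesion. According to the methods, the culture with the best viability and fusion was chosen, hence 4 replicates need not be 4 horses and the errors may be technical. On each of 4 arrays, RNA of HMB-treated cells was labeled with Cy5 and control RNA with Cy3. The dyes were not swapped, therefore treatment and dye cannot be told apart. The Cy3 sample has an identical replicate number in the labels of all arrays, whereas the methods give n = 4 for the control cells. Should the Cy3 sample be a single RNA, the errors below do not include variation between controls.

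The ligands IGF-1 and IGF-2 act through IGF1R, a tyrosine kinase receptor that signals through PI3K and AKT and through RAS and ERK. IGF2R, the cation-independent mannose-6-phosphate receptor, takes up IGF-2 for breakdown in lysosomes. The binding proteins hold the ligands outside the cell, limit or prolong their action, and are cleaved by proteases. In skeletal muscle, IGF-1 is known as a growth factor for muscle fibers, and IGF-2 is made by differentiating myoblasts and promotes their differentiation.

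The probes have 60 bases, and their positions are those of the files, on EquCab1. The files give no exon or coding region for these positions. The probes of the genes that were called, as defined below, are shown because the measured ratios rest on these targets, and they are written in the order of ligands, receptor and binding proteins.

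*igf1*: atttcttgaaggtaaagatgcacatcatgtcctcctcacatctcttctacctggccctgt
*igf2*, first probe: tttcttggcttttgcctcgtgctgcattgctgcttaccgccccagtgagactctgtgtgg
*igf2*, second probe: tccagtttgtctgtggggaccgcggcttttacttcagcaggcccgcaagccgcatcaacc
*igf2r*: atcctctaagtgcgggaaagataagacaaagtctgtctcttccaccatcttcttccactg
*igfbp2*: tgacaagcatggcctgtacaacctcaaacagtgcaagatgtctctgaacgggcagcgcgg
IGFBP-4: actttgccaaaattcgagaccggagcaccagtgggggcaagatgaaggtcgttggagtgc
IGFBP-5, distant probe: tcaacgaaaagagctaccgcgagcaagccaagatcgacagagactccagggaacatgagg
IGFBP-6: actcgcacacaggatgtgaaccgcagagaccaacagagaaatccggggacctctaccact

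The *igf1* probe lies on the minus strand of chromosome 28, from 26114321 to 26118887. It spans 4567 bases of the genome and hence crosses at least 1 intron. The *igf2* probes lie on the plus strand of the unplaced sequence Un, the first from 277275501 to 277275560 and the second from 277275581 to 277275640. The *igf2r* probe lies on the minus strand of chromosome 31, from 8218205 to 8218264. The *igfbp2* probe spans 2267 bases on the plus strand of chromosome 6, from 6601694 to 6603960. The IGFBP-4 probe lies on the minus strand of chromosome 11, from 20885389 to 20885448, and the IGFBP-6 probe on the plus strand of chromosome 6, from 70198242 to 70198301. The distant IGFBP-5 probe covers 13476 bases on the minus strand of chromosome 6, from 6617081 to 6630556. The longest run of bases that any of the 16 probes shared with a probe of another gene name ranged from 12 to 16 bases.

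Values are log2 ratios of HMB-treated over control cells, so that a negative ratio means a lower signal with HMB. A gene was called when the Benjamini-Hochberg adjusted p of limma was at most 0.05 and the fold change (FC) at least 1.3. The correction covered all 24648 tested probes, those with a channel well above background on all 4 arrays and with a ratio on at least 3. On each array, 55.2 to 61.8% of the probes were well above background in a given channel. The arrays correlated with r between 0.837 and 0.920 over the tested probes. None of the 16 IGF system probes had a saturated or marked spot or a surrogate signal on any array.

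The binding protein genes *igfbp2*, IGFBP-4 and IGFBP-6 rose in HMB-treated cells, while the ligand *igf2* fell. The ligand *igf1* and the receptor gene *igf2r* were also called lower, but from dim probes that were tested only through their control signal. Of the 6 member probes, all of which were tested, 1 was called higher and 4 lower, and 1 was not called. Over all tested probes 28.6% were called, 12.1% higher and 16.4% lower. By gene, *igfbp2* was higher, *igf1*, *igf2* and *igf2r* were lower, and *igf1r* was not called. Of the 4 hyphenated genes, each represented by its brightest probe, IGFBP-4 and IGFBP-6 were higher and 2 were not called. For the 9 genes together the counts were 3 higher, 3 lower and 3 not called, with a median log2 ratio of −0.14. The median over all tested probes was −0.07. The 5 binding protein genes alone had a median of 0.68, with 3 higher, 0 lower and 2 not called. That count rests on the choice of the brightest probe. Over the 9 hyphenated probes, 2 were higher and 5 lower, all 5 being probes of IGFBP-5, and as the mean over its probes IGFBP-5 was called lower at −0.47.

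**Figure D1:**
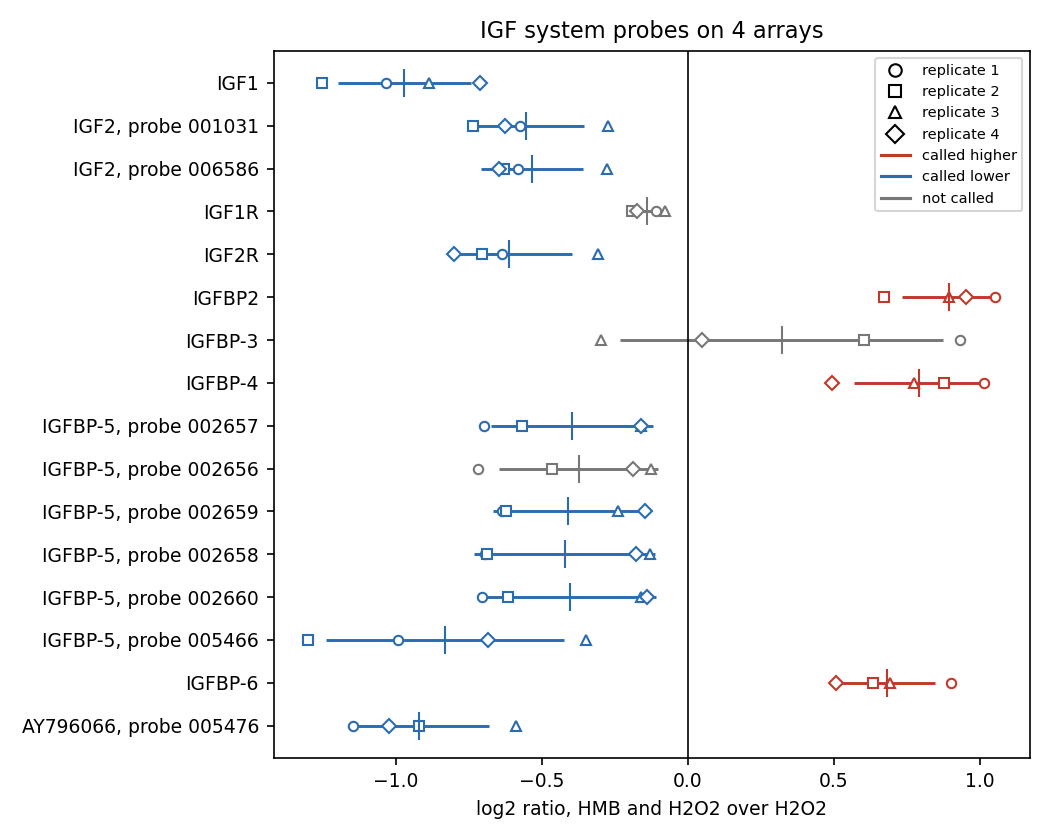
Log2 ratios (x axis) of the 16 probes of the IGF system (y axis) on each of the 4 arrays, with the mean as a vertical tick and the SD as a bar. All 4 arrays lie above 0 for IGFBP2, IGFBP-4 and IGFBP-6 and below 0 for the ligands, both receptors and IGFBP-5, whereas those of IGFBP-3 lie on both sides.

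The ligand *igf1* was dim in both groups. Its Cy3 signal in control cells was 36.8, 51.6, 51.0 and 40.6 on arrays 1 to 4, and its Cy5 signal in HMB-treated cells was 18.0, 21.7, 27.6 and 24.8. The signals of the groups did not overlap, and array 2 held the largest difference. The log2 ratios were −1.03, −1.25, −0.89 and −0.71, with a mean of −0.97 ± 0.23 (SD, n = 4) and an adjusted p of 5.68e-04 with limma. With HMB, the probe was not well above background on any array. On the deposited signals, quantile-normalized between arrays, the bound described under the processing corresponds to a 1.76-fold lower signal, against a measured FC of 1.96. This bound is no lower limit on the change, since the ratios with normexp or without background correction, given below, were smaller in size. The probe was tested only because of its control signal, and 98.8% of the 161 probes in that position were called lower. The ratio was −0.14 with normexp (offset 50, above the HMB-treated signals of this probe) and −0.26 without background correction. Both settings also replaced the deposited normalization by loess, and the probe was not called with either.

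The ligand *igf2* was measured well above background in both groups. Its brighter probe, the first, gave 1577, 1416, 1403 and 1263 in control cells and 1058, 850, 1161 and 819 in HMB-treated cells. All HMB-treated signals lay below all control signals, and array 3 showed the smallest difference. The log2 ratios were −0.58, −0.74, −0.27 and −0.62, with a mean of −0.55 ± 0.20 (SD, n = 4), an FC of 1.47 and an adjusted p of 0.00365 with limma. The second probe gave log2 ratios of −0.58, −0.63, −0.27 and −0.65, with a mean of −0.53 ± 0.17 (SD, n = 4) and an adjusted p of 0.0032. Both probes thus followed each other array by array. Under the stricter treat test of limma, whose null covers every FC up to 1.3, *igf2* was not called, with an adjusted p of 0.282 (2.22e-04 to 0.282 over all alternatives).

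The probe under the accession AY796066 is described in the files as the 3′ untranslated region of *igf2*. It lies further along the plus strand of the same unplaced sequence, from 277277448 to 277277507. Its log2 ratios were −1.14, −0.92, −0.59 and −1.02, with a mean of −0.92 ± 0.24 (SD, n = 4) and an adjusted p of 7.99e-04 with limma. It was lower than the brighter *igf2* probe on every array, by a mean of −0.37 on the log2 scale (range −0.57 to −0.19). The exact two-sided permutation p of this difference was 0.125, the smallest that 4 arrays allow. The difference depended on the processing. With normexp and loess, the mean ratios were −0.45 for this probe and −0.46 for the brighter *igf2* probe. Without background correction they were −0.55 and −0.45. All 3 *igf2* probes had their smallest drop on array 3.

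The receptor gene *igf1r* was not called. Its probe lies on the minus strand of chromosome 1, from 101337333 to 101337392. It gave 98.6, 84.3, 98.1 and 78.6 in control cells and 91.4, 73.8, 92.9 and 69.7 in HMB-treated cells, and the groups overlapped. The log2 ratios of −0.11, −0.19, −0.08 and −0.17 were all negative and differed little from each other. Their mean was −0.14 ± 0.05 (SD, n = 4), with a 95% interval of −0.28 to 0.01 and an adjusted p of 0.104 with limma.

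The IGF-2 scavenger receptor gene *igf2r* fell. Its signals were 62.7, 68.3, 73.1 and 52.8 in control cells and 40.4, 41.9, 59.1 and 30.3 in HMB-treated cells. The ranges overlapped between arrays, although on each array the HMB-treated signal was the lower. The log2 ratios were −0.63, −0.71, −0.31 and −0.80, with a mean of −0.61 ± 0.21 (SD, n = 4), an FC of 1.53 and an adjusted p of 0.00295 with limma. The probe was well above background with HMB on 3 of the 4 arrays, so that it too was tested through its control signal. The ratio was −0.19 with normexp and −0.24 without background correction, both with loess, and neither was called.

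**Figure D2:**
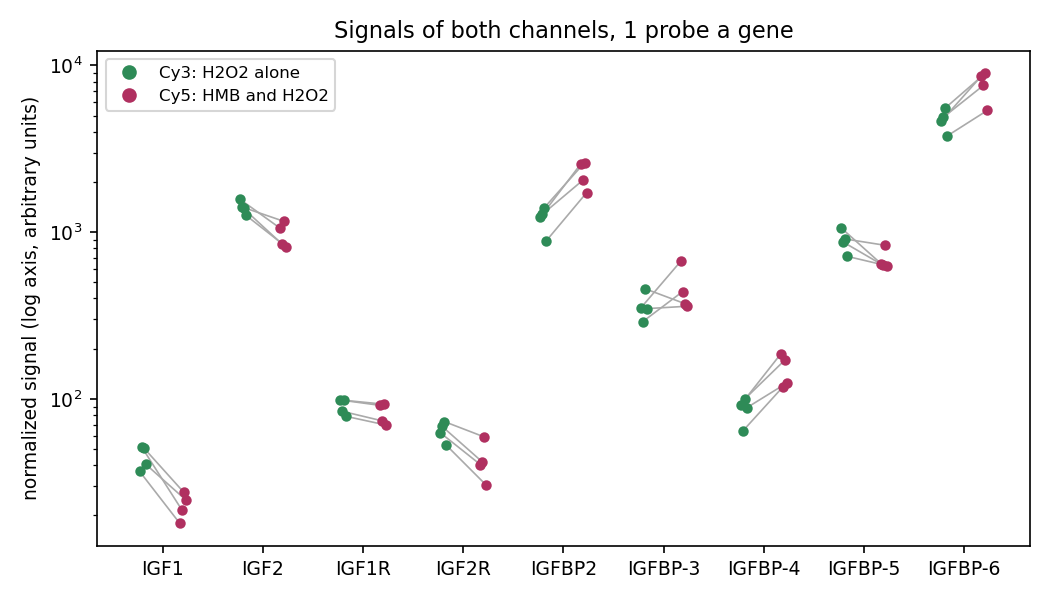
Normalized signal (log axis, arbitrary units) of the brightest probe of each gene in control cells (Cy3) and HMB-treated cells (Cy5), with a line joining both channels of each of the 4 arrays. Signals of different probes are not comparable in level, and the slope of each line is the change on that array.

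Among the binding proteins, *igfbp2* had the largest ratio. IGFBP-2 binds IGF-2 with high affinity and is known from developing and dividing cells. The probe gave 1231, 1280, 1404 and 889 in control cells and 2551, 2041, 2608 and 1722 in HMB-treated cells, with no overlap. The log2 ratios were 1.05, 0.67, 0.89 and 0.95, with a mean of 0.89 ± 0.16 (SD, n = 4), an FC of 1.86 and an adjusted p of 3.55e-04 with limma. It was called higher under all 18 alternative settings, with ratios from 0.40 to 1.06. The lowest came from scaling to the spike-in RNA.

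IGFBP-4, a binding protein that mostly inhibits IGF action and is cleaved by PAPP-A, rose from 92.4, 64.2, 99.96 and 88.5 in control cells to 186, 118, 171 and 125 in HMB-treated cells. The groups did not overlap. The log2 ratios of 1.01, 0.88, 0.77 and 0.49 had a mean of 0.79 ± 0.22 (SD, n = 4), an FC of 1.73 and an adjusted p of 0.00118 with limma. IGFBP-6, which prefers IGF-2, gave 4625, 4882, 5553 and 3778 in control cells and 8630, 7578, 8972 and 5373 in HMB-treated cells. The HMB-treated signal of array 4 lay within the control range, but on each array HMB-treated cells were higher. The log2 ratios of 0.90, 0.63, 0.69 and 0.51 had a mean of 0.68 ± 0.16 (SD, n = 4), an FC of 1.61 and an adjusted p of 0.00106 with limma. With scaling to the spike-in RNA, the ratios fell to 0.30 for IGFBP-4 and 0.20 for IGFBP-6 and were not called. That scaling moved the median of all tested probes by −0.49. Since it shifts all probes of an array alike, the ratios relative to the median, 0.86 and 0.75, cannot change under it. They are therefore no test of the lost calls.

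IGFBP-3, the main carrier of IGFs in blood, varied between arrays more than it differed between groups. Its probe spans 1155 bases on the minus strand of chromosome 4, from 16310586 to 16311740. It gave 350.0, 290, 458 and 348 in control cells and 668, 440, 373 and 359 in HMB-treated cells. The log2 ratios were 0.93, 0.60, −0.30 and 0.05, high on arrays 1 and 2, negative on array 3 and near 0 on array 4. The mean of 0.32 ± 0.55 (SD, n = 4) had a 95% interval of −0.16 to 0.80 and an adjusted p of 0.225 with limma. It turned to −0.17, again not called, with the spike-in scaling. Relative to the median of all tested probes it was 0.39, a value that this scaling leaves unchanged by construction.

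IGFBP-5, the binding protein best known from differentiating myoblasts, had negative mean ratios for all 6 probes, of which 5 were called lower, but its brightest probe fell just short of the threshold. Among them, 5 lie within 6614690 to 6614753 on the minus strand of chromosome 6. They share 56 bases with offsets of up to 4 bases, so they are 1 target measured repeatedly. The brightest gave 1062, 873, 910 and 716 in control cells and 646, 632, 834 and 628 in HMB-treated cells, and the groups overlapped. Its log2 ratios were −0.72, −0.47, −0.13 and −0.19, larger on arrays 1 and 2 than on arrays 3 and 4. Their mean was −0.37 ± 0.27 (SD, n = 4) with an adjusted p of 0.0319 with limma. The FC of 1.296 fell just under the threshold. The means of the 5 overlapping probes ranged from −0.42 to −0.37, and the other 4 were called lower. Without array 3 or array 4, the brightest probe was called, at −0.46 and −0.44. Of the 9 hyphenated probes, 7 were called on all arrays, and without array 1 or array 2 the number was 3.

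The distant IGFBP-5 probe crosses at least 1 intron, given its span, and was called lower with limma. No IGFBP-5 probe, this one included, was called lower with the methods' t-test or with treat. The same held with normexp and loess and with no filter on dim probes. It gave 123, 112, 107 and 88.5 in control cells and 61.7, 45.5, 83.9 and 55.1 in HMB-treated cells, with no overlap. The log2 ratios were −0.99, −1.3, −0.35 and −0.68, with a mean of −0.83 ± 0.41 (SD, n = 4), an FC of 1.78 and an adjusted p of 0.00587 with limma. On all 4 arrays it was lower than the brightest IGFBP-5 probe, by a mean of −0.46 (range −0.84 to −0.22). The exact two-sided permutation p was 0.125, the smallest possible. Whether this difference holds with other background corrections was not tested.

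**Figure D3:**
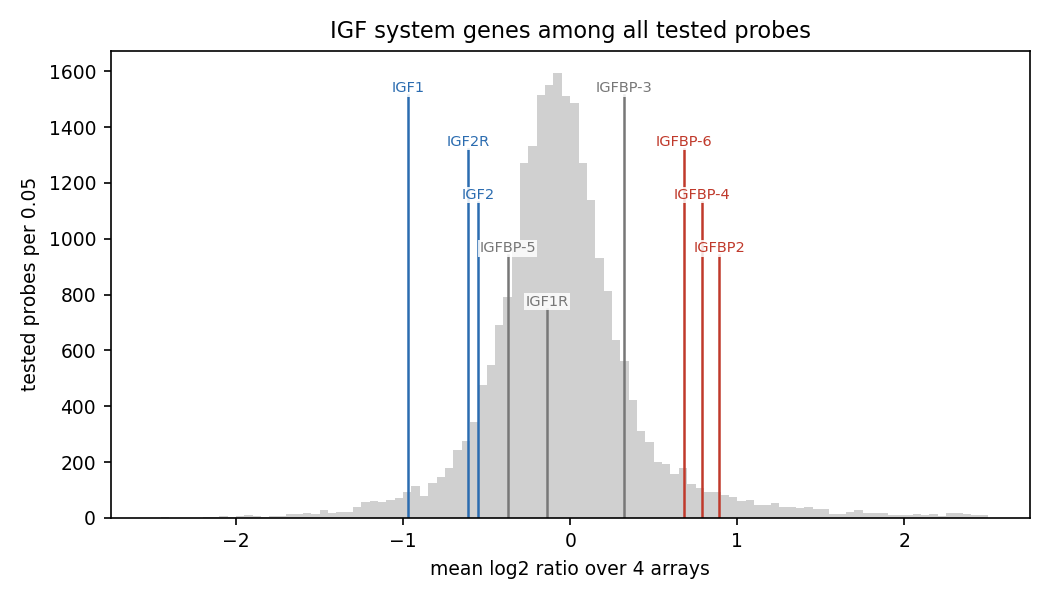
Distribution of the mean log2 ratio (x axis) over the 24648 tested probes (y axis, probes per 0.05), with the brightest probe of each IGF system gene as a colored line (red, called higher; blue, called lower; gray, not called; line heights are arbitrary and ratios beyond ±2.5 are not drawn). IGFBP2 at 0.89 lay above 94.9% of the probes, and the place of IGF1 is not exact, since it was not well above background with HMB.

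The middle 90% of all tested probes had ratios from −0.72 to 0.91. Hence the *igf2* probe under its accession and the distant IGFBP-5 probe lay outside this range, and the rise of *igfbp2* lay just inside it. The ratio of *igf2* lay above that of 8.64% of the probes and that of *igf2r* above 7.07%. IGFBP-4 and IGFBP-6 lay above 94.1% and 93.0%.

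Signals of cell type markers also differed between the groups. Over all tested probes, 12.1% were called higher and 16.4% lower. Of 8 tested myotube markers, among them *acta1*, *ckm* and *myh3*, 7 were lower and 0 higher. Their summed signal ranged from 260083 to 285376 in control cells and from 109576 to 163054 in HMB-treated cells. Of 8 myoblast markers, 4 were lower and 1 higher. Among the lower ones, *myf6* was not well above background with HMB on any array. It was tested only through its control signal, and 98.8% of the probes in that position were called lower. Of 8 tested fibroblast markers, among them *dcn* and *lum*, 5 were higher and 0 lower. The summed signal of the 9 fibroblast markers on the array was 417161 to 507324 in control cells and 410907 to 641707 in HMB-treated cells. Of 3 leukocyte markers tested, 2 were higher, whereas the defining *itgam*, *aif1*, *tyrobp* and *cd3e* were not well above background in either channel. The endothelial markers *kdr*, *pecam1*, *cdh5* and *vwf* and the adipocyte markers *fabp4*, *lep*, *cidec* and *pparg* were likewise not above background. The endothelial list held 1 tested gene, *erg*, which was well above background in both channels on all arrays and not called by its brightest probe, with a ratio of 0.34, although 1 of its 2 probes was called. The part of these marker differences in the ratios of the IGF system was not tested. Fewer cells of a type and less RNA per cell cannot be told apart in these cultures.

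The other genes of the pathway were sought in 7 lists of 90 genes, of which 73 were on the array and 50 were tested. Of these, 6 were higher, 6 lower and 38 not called. That is 24.0%, against the 28.6% of all tested probes, with a median of −0.04. For the pathway as a whole the share was thus near the background.

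The genes *insr*, *igfbp1* and *irs1* gave little signal. Neither probe of *insr*, the insulin receptor gene, was tested, and neither were any of the 5 probes of *igfbp1*, whose highest signal was 32.8. The adaptor *irs1* did not exceed 24.1 and was never well above background. No probe carried the symbol *igfals*, the acid-labile subunit of the circulating complex, or *stc2*, a PAPP-A inhibitor. The carrier-like *igfbpl1* was well above background in both channels on all arrays. It was tested and not called, with a log2 ratio of 0.06 ± 0.16 (SD, n = 4).

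Of the 11 tested genes for proteases that cleave binding proteins and for their inhibitors, 3 were higher and 0 lower. The share called was 27.3%, near the 28.6% of all tested probes. The gelatinase *mmp2* gave 287, 237, 244 and 225 in control cells and 445, 312, 559 and 301 in HMB-treated cells. The log2 ratio was 0.66 ± 0.37 (SD, n = 4), with an adjusted p of 0.0103 with limma, and array 3 was the highest. Tissue plasminogen activator, *plat*, rose by 0.62 ± 0.21 with an adjusted p of 0.00286, and all 5 of its probes were called. Stromelysin *mmp3* was not well above background in any control sample and reached 48.1 to 117 in HMB-treated cells. It was tested only through its signal with HMB, against control signals of 4.64 to 6.51. Its adjusted p of 2.43e-05 with limma is therefore not independent of that selection. On the deposited signals, quantile-normalized between arrays, the bound described under the processing corresponds to a 3.84-fold higher signal. PAPP-A, the protease of IGFBP-4, had a log2 ratio of −0.30 ± 0.35 and an adjusted p of 0.108. Its inhibitor *stc1* had a ratio of 0.24 ± 0.63 by its brightest probe, with an adjusted p of 0.407, although 2 of its 3 probes were called.

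**Figure D4:**
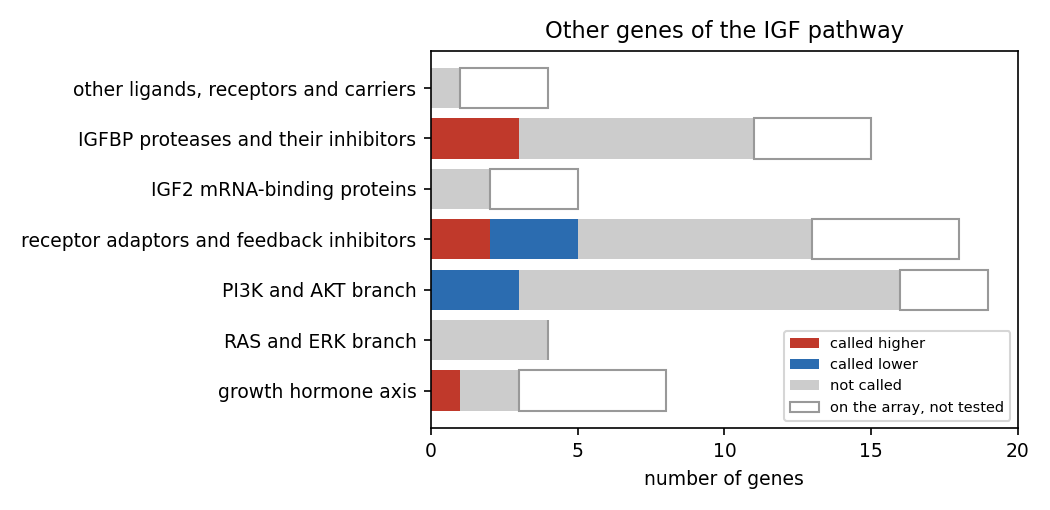
Number of genes (x axis) called higher, called lower, not called and not tested in each of 7 lists of other IGF pathway genes (y axis). Binding protein proteases held 3 higher and 0 lower, the PI3K and AKT branch 0 higher and 3 lower, and receptor adaptors 2 higher and 3 lower.

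Receptor adaptors and feedback inhibitors moved both ways, with 2 higher and 3 lower of 13 tested, or 38.5% called. The insulin and IGF receptor substrate *irs2* rose by 0.45 ± 0.33 (SD, n = 4), with an adjusted p of 0.0295 and array ratios from 0.04 to 0.85. The RAS exchange factor *sos2* had a ratio of −0.62 ± 0.12 with an adjusted p of 9.63e-04. The receptor inhibitor *grb10* had −0.41 ± 0.11 with an adjusted p of 0.00435, and the GRB10-interacting *gigyf2* had −0.51 ± 0.11 with an adjusted p of 0.00178, although 2 of its 4 probes were not called. The docking protein gene *dok1* was the other gene called higher. These adjusted p-values are from limma.

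In the PI3K and AKT branch, 0 of 16 tested genes were higher and 3 lower, including the catalytic subunits *pik3ca* and *pik3cb*. That is 18.8% called, against 28.6% of all tested probes, 16.4% of which were called lower. For *pik3cb* the control signals were 1026, 886, 1227 and 957, and the HMB-treated signals were 568, 493, 600.4 and 493. The groups did not overlap, and the log2 ratio was −0.92 ± 0.09 (SD, n = 4) with an adjusted p of 1.43e-04 with limma. The ratio of *pik3ca* was −0.45 ± 0.13 with an adjusted p of 0.00384. That of the kinase gene *akt2* was −0.62 ± 0.21 with an adjusted p of 0.00273, from a dim probe that was well above background with HMB on 2 of 4 arrays. In the RAS and ERK branch, limma called 0 of 4 tested genes, with a median log2 ratio of −0.16. Of these genes, 1 had an adjusted p of at most 0.05 but an FC below the threshold. The methods' t-test and treat also called 0 of them.

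Limma called 0 of 2 tested genes for proteins that bind *igf2* mRNA. Both of these, *igf2bp2* at −0.15 ± 0.05 (SD, n = 4) and *elavl1* at −0.31 ± 0.12 (SD, n = 4), had an unadjusted p under 0.05 and an FC below the threshold. The methods' t-test and treat likewise called 0 of these genes. Neither *igf2bp1* nor *igf2bp3* was tested, since they were near background. In the growth hormone axis, which drives *igf1* in liver, the receptor gene *ghr* was not called, with a ratio of 0.13 ± 0.26 and an adjusted p of 0.364. The kinase gene *jak2*, shared with cytokine receptors, gave 177, 155, 245 and 231 in control cells and 873, 949, 1368 and 959 in HMB-treated cells. The groups did not overlap, and the ratio was 2.36 ± 0.24 with an adjusted p of 1.77e-05 with limma.

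**Figure D5:**
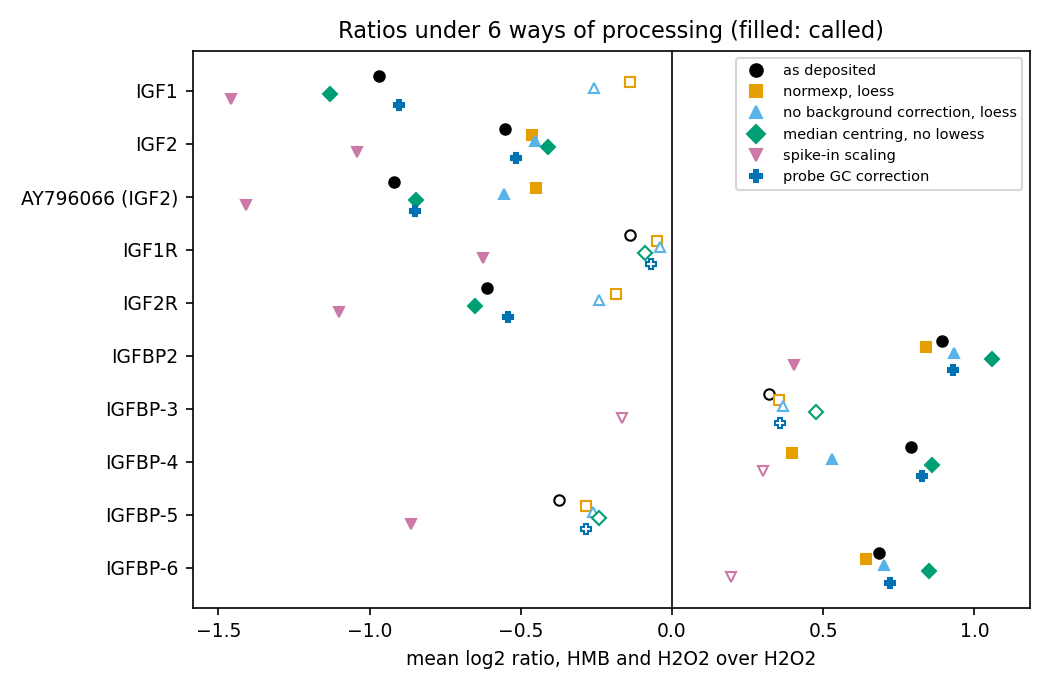
Mean log2 ratio (x axis) of each IGF system gene and of the accession probe (y axis) under 6 ways of processing, with filled symbols for called ratios. IGFBP2 was called under all 6, IGF1 and IGF2R were not called with normexp or without background correction, and the spike-in scaling moved every ratio to the left.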

How the data were processed

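The authors extracted 2-color scans of 4 Agilent horse arrays, which lay on 1 slide, with Feature Extraction (version 10.10.1.1 per the file headers). The deposited intensity values are background-subtracted signals that the software normalized on each array (linear and lowess). The deposited log10 ratios of Cy5 over Cy3 were converted here to log2. Control and marked spots were left out, and spots of 1 probe were averaged. Each array gave 1 ratio per probe and counted as 1 replicate. Ratios were tested with limma 3.58.1 in R 4.3.3 (intercept, eBayes), the Benjamini-Hochberg adjustment spanning every tested probe, and the test was checked on simulated data. The brightest probe stood for a gene. The precision is limited by the number of arrays. A signal not well above background on any array was given as a bound, against the lowest signal well above background in its channel on each array, or the probe's own where higher. For these bounds alone, the mean log2 intensities of both channels were quantile-normalized between arrays, which leaves the ratios unchanged. Members, lists, the pathway genes to be named (per list the 3 with the largest called change, and neighbors of a member) and tests were chosen with earlier results of these data known. For 1 gene of the lists, the result is not reported here.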

Additional observations from a re-analysis of the deposited data

How the results depend on the processing

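The directions of the called IGF system genes held under every setting in which they were tested, but the number of calls did not. Settings that change only the test or the probe filter leave the ratios as they are and cannot alter a direction. Limma's treat called 2 member probes and 2 member genes, 2 hyphenated probes, 3 other pathway genes and 2821 of all tested probes, and *igf2* and *igf2r* lost their calls. With normexp and loess the numbers were 3, 2, 2, 6 and 3537, and without background correction 3, 2, 3, 7 and 4439. With both channels required above background, 3 member probes and 2 member genes were called, since *igf1* and *igf2r* were left out. The hyphenated probes called numbered 2 with the methods' t-test and with no filter on dim probes, and 3 with median centring and with the correction for probe GC content. The t-test called 5030 of all tested probes. Scaling to the spike-in RNA left 1 hyphenated gene called, and gave 34 pathway genes and 18553 of all probes. With it, IGFBP-3 turned from 0.32 to −0.17, and *igf1r* at −0.63 and IGFBP-5 at −0.86 were called lower. That scaling shifts all probes of an array alike. Relative to the median of all tested probes, these ratios (0.39, −0.07 and −0.31) are therefore unchanged by construction. IGFBP-5 was also called with scale normalization between arrays and as the mean over its probes (−0.47). Of all calls, 42.5% were higher, against 54.7% with treat, 55.0% with normexp, 60.1% without background correction, 63.2% with median centring, 55.6% with the GC correction and 6.72% with the spike-in scaling. With 1 replicate left out, 5 member probes, 4 member genes and 11 pathway genes were called each time, 3 to 8 hyphenated probes, 2 to 3 hyphenated genes and 6637 to 7151 of all probes. The cause of these changes was not tested. Normexp and the setting without background correction also changed the normalization to loess. The test is paired by array, since each array gives a ratio of both groups. With an identical replicate number for the Cy3 sample on all arrays, the labels give no further pairing of cultures.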
